A study of Homo sapiens with 4 samples.

Results

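The 10 genes described here encode the transcription factors ATF4 and CHOP (DDIT3) and regulators that act with them or downstream of them in the cellular stress response. They were taken by symbol from the gene tables of the study, and all 10 of 10 were found among 39261 genes. The study sequenced total RNA of 2 human breast cancer lines, each as 1 treated and 1 control culture with 1 library apiece. The triple-negative line MDA-MB-231, grown in L15 with fetal bovine serum, underwent TMEM126A knockdown, and its control vector is called sh-NC in the study's design. MCF10-Ca1a (Ca1a), a tumour-forming line descended from MCF10A mammary cells, received TMEM126A overexpression or the control vector pCDH. Ca1a was grown in DMEM/F12 with horse serum, insulin, EGF, cholera toxin and hydrocortisone. Lentivirus was used in all 4 cultures, controls included, and the sources used here do not say whether a culture was a pool or a clone.

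Stress kinases phosphorylate the translation factor eIF2alpha, which lowers protein synthesis as a whole while upstream open reading frames in the ATF4 mRNA allow more ATF4 protein to be made. ATF4 then binds composite sites with C/EBP proteins and drives genes for amino acid supply, redox balance and, together with CHOP, for feedback and cell death. Mitochondrial defects are known to engage this response in many cell types. Because ATF4 is controlled largely at translation, its mRNA level and its activity need not move together.

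The tables held 20673373 to 21405193 reads per library. TMEM126A, which encodes a mitochondrial inner membrane protein, checks the labels. It had 559 normalized counts in the MDA-MB-231 control and 22.9 after knockdown, a 24.5-fold difference (95% counting interval 16.1 to 38.9), and 265 in the Ca1a control and 9381 after overexpression, a 35.4-fold difference (31.3 to 40.1). The epithelial gene EPCAM stood at 131 FPKM (fragments scaled by transcript length and library size) in the Ca1a control and 3.10 FPKM in the MDA-MB-231 control, and the mesenchymal gene VIM at 90.5 and 721 FPKM. Of the 4 epithelial markers, CDH1 and KRT17 were also higher in the Ca1a control, but KRT19, a further keratin, was lower there, with 1.04 FPKM against 163 FPKM in the MDA-MB-231 control. The leukocyte gene PTPRC stood at 0.0178 FPKM or less in all 4 libraries and the fat cell gene ADIPOQ at 0. The macrophage marker CD68 ranged from 28.9 to 98.6 FPKM, with little difference between the MDA-MB-231 libraries (97.6 after knockdown). The collagen gene COL1A1 ranged from 0.813 to 1.79 FPKM. The endothelial gene PECAM1 stood at 0.734 FPKM after knockdown against 0.400 in its control, and at 1.36 after overexpression against 0.865. With 1 library per group there was no test between conditions, and every interval covers counting error only. In bulk RNA, fewer cells with a transcript and less transcript per cell cannot be told apart.

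The plot of read counts by library shows the level of each gene behind the ratios that follow.

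**Figure D1:**
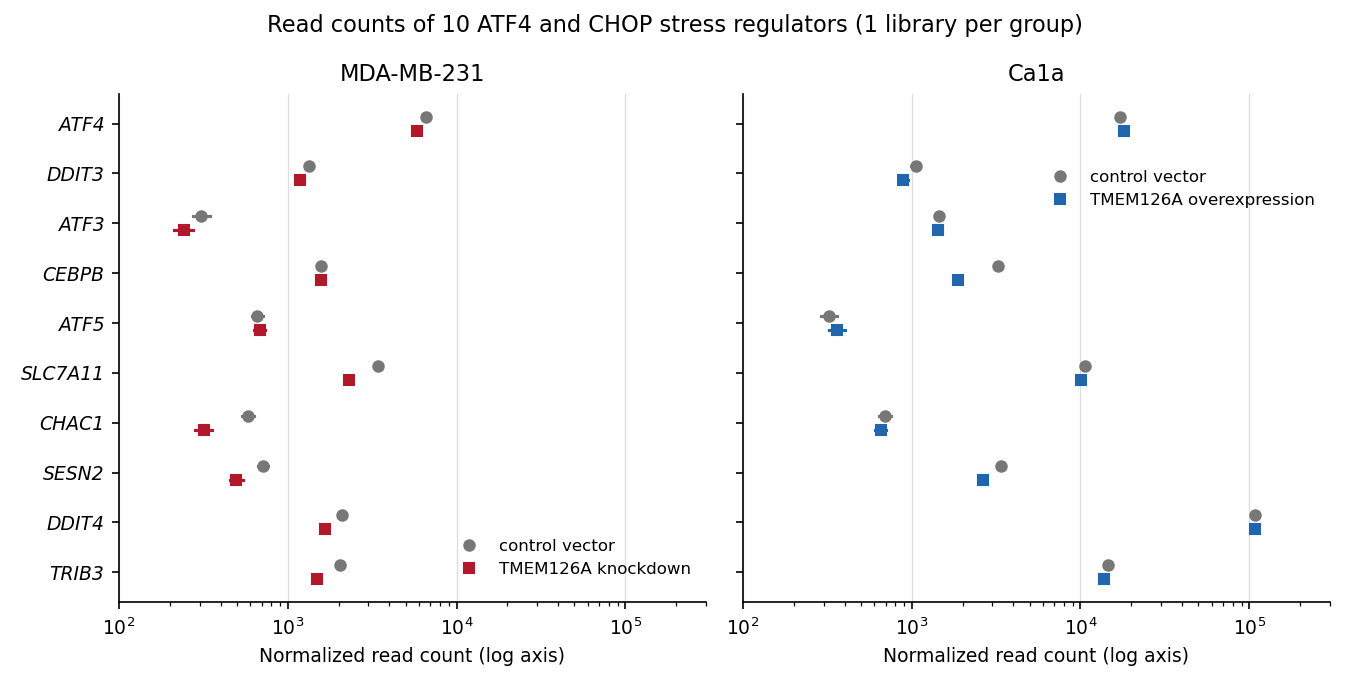
Normalized read counts (log axis) of the 10 genes in the control library (grey circles) and the treated library (coloured squares) of MDA-MB-231 (left) and Ca1a (right). Bars are 95% Poisson intervals of the single libraries. Most red squares lie left of their grey circles in MDA-MB-231, CHAC1 by the widest step, whereas in Ca1a CEBPB and SESN2 are the genes whose symbols are clearly apart.

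In the knockdown comparison 6 of the 10 genes were lower in the knockdown library and 0 were higher, by a rule of size. A gene was called if its mean was at least 20 normalized counts, the larger of its values exceeded the smaller by at least 25% and the 95% interval of the ratio left out 1. By that rule 2.30% of the 13292 genes that reached the minimum mean were called lower and 3.98% higher. Among the 9434 genes at least as abundant as ATF3, the least abundant of the 10, the shares were 1.26% lower and 2.29% higher. The median log2 ratio of the 10 genes was -0.34, beside 0.01 for all genes with a mean of at least 20. In order of fold the genes called lower were CHAC1, SLC7A11, SESN2, TRIB3, ATF3 and DDIT4. The transcription factor genes ATF4 and DDIT3 were lower by less than the required 25%, and CEBPB and ATF5 had ratios near 1. By FPKM the 10 ratios ran from 0.532 for CHAC1 to 0.980 for ATF5.

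**Figure D2:**
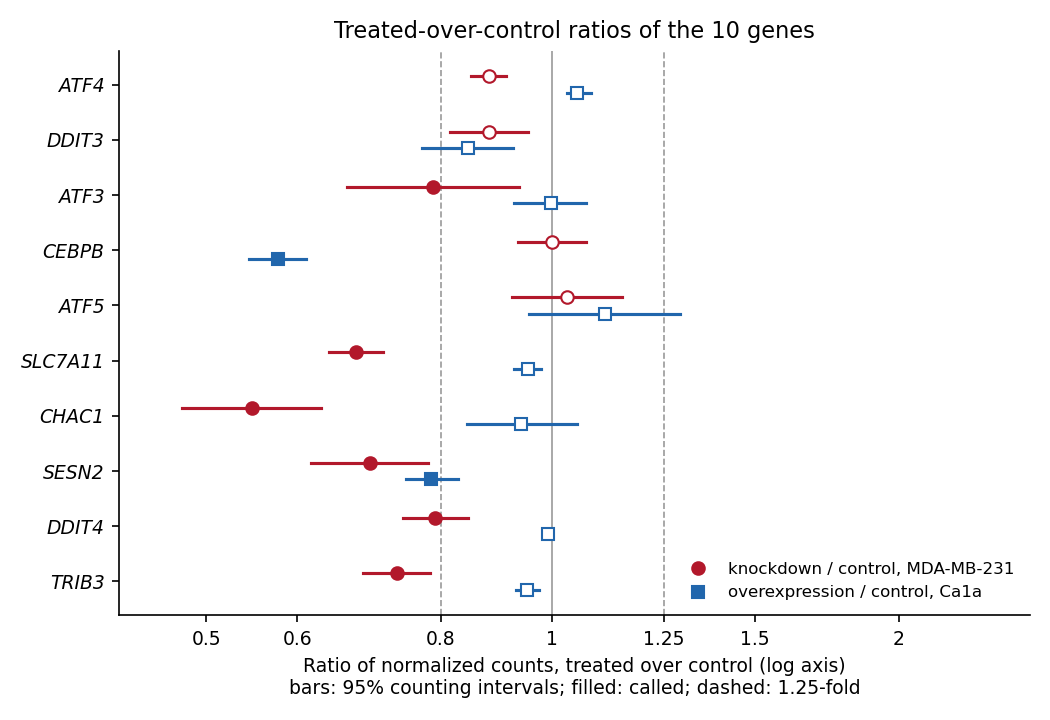
Ratios of normalized counts, treated over control (log axis), for the knockdown comparison in MDA-MB-231 (red circles) and the overexpression comparison in Ca1a (blue squares), with 95% counting intervals, 1 library per group. Filled symbols were called, and dashed lines mark the 25% difference. Red symbols are filled for 6 genes, from CHAC1 at 0.548 to DDIT4 at 0.791, and blue symbols for CEBPB at 0.577 and SESN2 at 0.785.

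The pair of genes around glutathione had the largest folds of the 10 in the knockdown comparison. CHAC1 encodes a gamma-glutamyl cyclotransferase that degrades glutathione, and it is a classical target of ATF4 and CHOP. It had 579 normalized counts in the MDA-MB-231 control (95% Poisson interval 532 to 628) and 317 in the knockdown library (283 to 354), which is 1.82-fold lower (1.59 to 2.10). The level intervals of these libraries do not overlap, and only 2 of the 9434 genes of such abundance had a lower ratio, 1 of them TMEM126A. In Ca1a CHAC1 had 695 counts in the control and 653 in the overexpression library, a ratio of 0.940 (0.843 to 1.05) whose interval holds 1. CHAC1 (Entrez 79094) is protein-coding, like the other 9, and maps to chromosome 15, positions 40952962 to 40956519, plus strand (GRCh38, GENCODE release 29, as for all positions here).

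SLC7A11 encodes the cystine importer of system xc-, which supplies cysteine for glutathione synthesis. It had 3419 normalized counts in the MDA-MB-231 control and 2309 in the knockdown library, 1.48-fold lower (1.40 to 1.56). Of the 9434 genes, 10 had a lower ratio. The Ca1a control had 10608 counts and the overexpression library 10097, a ratio of 0.952 (0.926 to 0.978), so the difference there was small although its interval left out 1. The gene (Entrez 23657) maps to chromosome 4, positions 138164097 to 138242349, minus strand. Its antisense gene SLC7A11-AS1 had at most 4.02 normalized counts in any library.

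The 30 bases below are shown because they hold the sequence that ATF4 and C/EBP proteins are known to bind together. The letters TGATGNAA of this C/EBP-ATF composite element were searched on both strands in the 250 bases before each RefSeq gene start (GRCh38.p14), and capitals mark the match. Of the 10 genes 9 have such a window, and CHAC1 and ATF3 held a match. Over all genes with a window 3.89% held one, and 3.15% of all 34943 windows. The match in CHAC1 begins 209 bases before the RefSeq start and falls in the 5′ UTR exon of 2 GENCODE transcripts of the gene. The match in ATF3 begins 191 bases before the more upstream RefSeq start and lies outside the exons of the gene.
CHAC1, chr15:40953251-40953280, plus strand: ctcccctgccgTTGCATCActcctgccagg
ATF3, chr1:212565205-212565234, plus strand: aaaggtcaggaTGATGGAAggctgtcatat

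A match is a description of letters and no evidence of binding. The other searched motifs, the cAMP response element TGACGTCA and the C/EBP palindrome TTGCGCAA, were in 0 of the windows of the 10 genes. Over all genes 2.03% and 0.146% held them.

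SESN2, DDIT4 and TRIB3 encode inhibitors of growth signalling, and all 3 were called lower in the knockdown library. SESN2 encodes sestrin 2, a leucine-binding protein that restrains mTORC1 through GATOR2. Its count was 713 in the MDA-MB-231 control and 495 in the knockdown library, 1.44-fold lower (1.28 to 1.62), and 14 of the 9434 genes had a lower ratio. In Ca1a the count was 3388 in the control and 2661 in the overexpression library, 1.27-fold lower (1.21 to 1.34). Among the 10 genes SESN2 was the only one called in both comparisons, and it was lower in the treated library each time. The gene (Entrez 83667) maps to chromosome 1, positions 28259527 to 28282491, plus strand.

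DDIT4 encodes REDD1, which lowers mTORC1 activity through the TSC complex and is also induced by hypoxia and glucocorticoids. It had 2086 normalized counts in the MDA-MB-231 control and 1651 in the knockdown library, 1.26-fold lower (1.18 to 1.35), just past the required fold. The Ca1a counts were 108401 in the control and 107483 in the overexpression library, with a ratio of 0.992 (0.983 to 1.0). The Ca1a libraries thus differed by about the counting error at this very high level. DDIT4 (Entrez 54541) maps to chromosome 10, positions 72273920 to 72276036, plus strand.

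TRIB3 encodes a pseudokinase that binds ATF4, CHOP and AKT and dampens their activity. It had 2050 normalized counts in the MDA-MB-231 control and 1500 in the knockdown library, 1.37-fold lower (1.28 to 1.46), and 32 of the 9434 genes had a lower ratio. Counts of 14501 in the Ca1a control and 13784 in the overexpression library gave a ratio of 0.951 (0.929 to 0.973). By FPKM that ratio was 0.999, from 229 FPKM in either library, so the small Ca1a difference was not seen on both scales. TRIB3 (Entrez 57761) maps to chromosome 20, positions 362835 to 397559, plus strand.

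The RefSeq windows of SESN2, called lower in both comparisons, and of DDIT4, whose level differed most between the lines, are printed for reference. Both end before the first GENCODE exon of the gene. Neither held any of the 3 motifs, so no letters are in capitals.
SESN2, chr1:28259268-28259517, plus strand: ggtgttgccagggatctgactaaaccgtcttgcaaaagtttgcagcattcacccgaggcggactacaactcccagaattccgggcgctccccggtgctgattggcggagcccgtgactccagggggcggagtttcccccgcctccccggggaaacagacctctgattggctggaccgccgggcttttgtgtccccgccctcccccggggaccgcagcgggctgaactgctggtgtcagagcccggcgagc
DDIT4, chr10:72273674-72273919, plus strand: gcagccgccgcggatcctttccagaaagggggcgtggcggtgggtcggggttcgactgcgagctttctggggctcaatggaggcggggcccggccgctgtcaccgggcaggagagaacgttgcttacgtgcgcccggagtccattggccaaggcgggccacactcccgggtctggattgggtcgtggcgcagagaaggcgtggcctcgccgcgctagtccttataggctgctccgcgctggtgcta

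Of the 5 transcription factor genes, ATF3 was the only one called in MDA-MB-231. ATF4 itself had 6581 normalized counts in the control and 5793 in the knockdown library, a ratio of 0.880 (0.850 to 0.912). In the overexpression comparison it had 17238 counts in the control and 18162 in the treated library, a ratio of 1.05 (1.03 to 1.08). Its mRNA was thus slightly lower with knockdown and slightly higher with overexpression, both by less than 25%. In the knockdown comparison 577 of the 9434 genes (6.12%) had a lower ratio than ATF4. With overexpression 5613 of the 8066 Ca1a genes at least as abundant as ATF5 (69.6%) had a lower ratio than ATF4. The ATF4 ratio with overexpression was thus not near either end of those genes. ATF4 (Entrez 468) maps to chromosome 22, positions 39519695 to 39522685, plus strand.

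DDIT3, the gene of CHOP, encodes a C/EBP family member that pairs with other C/EBP proteins and is induced by ATF4. It had 1344 normalized counts in the MDA-MB-231 control and 1184 in the knockdown library, a ratio of 0.881 (0.814 to 0.953). The Ca1a counts were 1058 in the control and 893 in the overexpression library, a ratio of 0.844 (0.771 to 0.924). Both ratios were below 1 by more than counting error and short of the required fold. DDIT3 (Entrez 1649) maps to chromosome 12, positions 57516588 to 57521737, minus strand. There it overlaps MARS and MBD6 on the opposite strand, and the sources used here do not give the strand setting of the counting. MARS had a ratio of 0.933 (0.902 to 0.966) with knockdown and 0.915 (0.890 to 0.940) with overexpression, and its part in the DDIT3 counts was not tested.

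ATF3 encodes an early stress factor that acts mostly as a repressor. It was the least abundant of the 10 genes in MDA-MB-231, with 308 normalized counts in the control (274 to 344) and 242 in the knockdown library (213 to 275), 1.27-fold lower (1.07 to 1.51). By FPKM it stood at 3.41 and 2.81, 1.21-fold lower, which is short of the required fold, so its call depended on the scale. The Ca1a libraries were close, with 1445 counts in the control and 1440 with overexpression, a ratio of 0.997 (0.926 to 1.07). ATF3 (Entrez 467) maps to chromosome 1, positions 212565334 to 212620777, plus strand.

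CEBPB encodes C/EBPbeta, a partner of ATF4 and CHOP that also acts in inflammatory and mammary gene control. It had 1570 normalized counts in the MDA-MB-231 control and 1571 in the knockdown library, a log2 ratio of 0.00 (interval of the ratio 0.933 to 1.07). The Ca1a counts stood apart, at 3244 in the control (3133 to 3358) and 1871 in the overexpression library (1787 to 1958), 1.73-fold lower (1.64 to 1.84). By FPKM it stood at 117 and 73.0 in these Ca1a libraries, 1.60-fold lower. CEBPB (Entrez 1051) maps to chromosome 20, positions 50190734 to 50192689, plus strand, and the antisense gene CEBPB-AS1 overlaps it. CEBPB-AS1, looked up after the values of CEBPB were seen, had 32 reads in the MDA-MB-231 control and 12 in the knockdown library, 2.70-fold lower (1.35 to 5.76). In Ca1a it had 16 reads in the control and 5 in the overexpression library, 3.20-fold lower (1.12 to 11.2). That is below the minimum mean of 20, so the rule of size does not cover it there. Without a stated strand setting, reads of the 2 genes cannot be told apart where they overlap.

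ATF5 encodes the closest relative of ATF4, which is known for the mitochondrial unfolded protein response. It had 661 normalized counts in the MDA-MB-231 control and 680 in the knockdown library, a ratio of 1.03 (0.923 to 1.15). For Ca1a the counts were 325 in the control and 361 with overexpression, a ratio of 1.11 (0.954 to 1.29). Neither interval left out 1. ATF5 (Entrez 22809) maps to chromosome 19, positions 49928702 to 49933935, plus strand, where it overlaps NUP62 and IL4I1 on the opposite strand.

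In the overexpression comparison 2 of the 10 genes, CEBPB and SESN2, were called lower and 0 higher. Of the 12111 Ca1a genes that reached the minimum mean, 4.21% were called lower and 4.22% higher. Among the 8066 genes at least as abundant as ATF5, the least abundant of the 10 in Ca1a, the shares were 2.59% and 2.38%. The other 8 genes differed by less than 25%. The median log2 ratio of the 10 genes was -0.07, beside 0.01 for all genes with such a mean. CEBPB stood near the low end, with 5 of the 8066 genes at a lower ratio, and SESN2 had 170 genes below it. CHAC1 and SLC7A11, the genes furthest from 1 in the knockdown comparison, lay at 0.940 and 0.952 here. The comparisons use different lines and share no library, and the difference between them was not tested.

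The authors' deposited table for MDA-MB-231 gives an adjusted p under 0.05 for 2 of the 10 genes, CHAC1 at 0.00253 and SLC7A11 at 0.00327. Of 21619 genes with a value in the authors' deposited table, 0.231% are under 0.05. TRIB3, SESN2 and DDIT4 have adjusted p-values of 0.128, 0.238 and 0.711 in the authors' deposited table, and the other 5 genes are at 1. The authors' deposited table for Ca1a gives CEBPB at 0.000202, SESN2 at 0.998 and the other 8 genes at 1, where 0.128% of 18801 genes are under 0.05. These values come from single libraries, so they rest on a spread that was not measured between replicates.

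Most of the 10 genes differed more between the control libraries of the lines than between treated and control within a line. For 9 of the 10 genes, all but CHAC1, the log2 difference in FPKM between the controls exceeded either construct's log2 ratio in size. The share of all genes for which this holds was not counted, so it is not read as particular to the 10. Between the controls 6 of the 10 genes were at least 2-fold higher in Ca1a, 1 was at least 2-fold lower and 3 lay within 2-fold. Of the 11363 genes whose mean over the controls reached 1 FPKM, 13.3% were at least 2-fold higher in Ca1a and 25.1% at least 2-fold lower. The median log2 ratio, Ca1a over MDA-MB-231, was 1.5 for the 10 genes and -0.27 for those 11363 genes. The lines were grown in different media, 1 of them with hydrocortisone, and the part of the medium was not tested.

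DDIT4 stood furthest apart, at 56.6 FPKM in the MDA-MB-231 control and 2876 FPKM in the Ca1a control, a 50.8-fold difference. In Ca1a it was the third most abundant gene of the FPKM table and took 0.509% of all reads, whereas in MDA-MB-231 it ranked 911 and took 0.0100%. Of the 11363 genes, 233 had a ratio at least as high. The level was as high with overexpression, at 2926 FPKM. TRIB3 followed at 31.6 FPKM in MDA-MB-231 and 229 FPKM in Ca1a, a 7.26-fold difference. SESN2, at 9.28 and 42.3 FPKM, was 4.56-fold higher in Ca1a. All 3 growth inhibitor genes were thus higher in the Ca1a control.

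**Figure D3:**
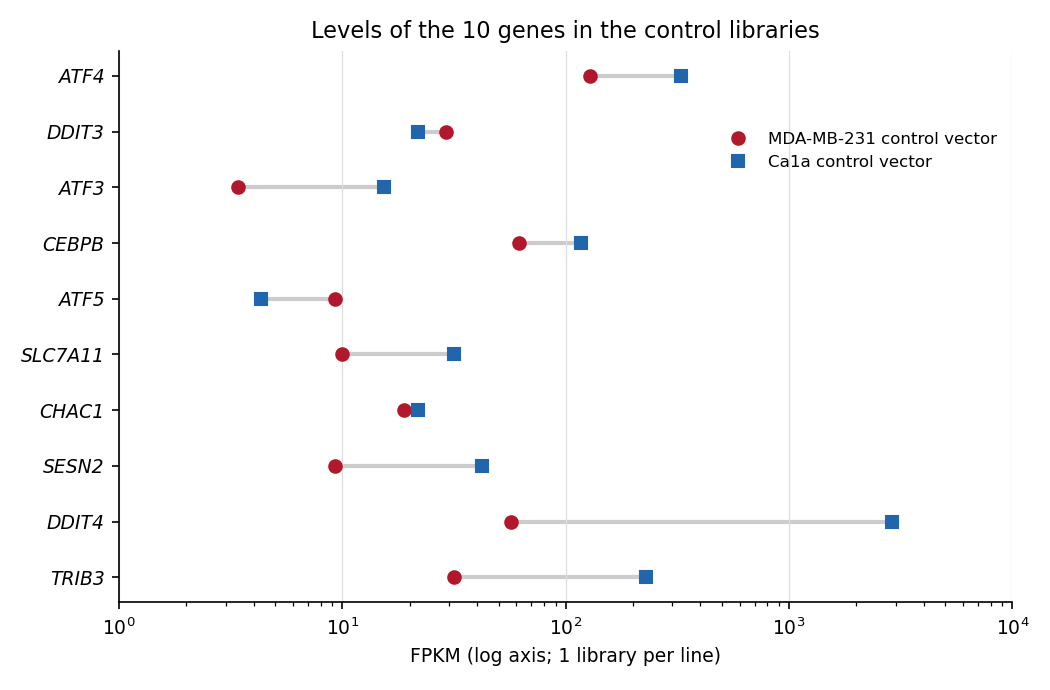
FPKM (log axis) of the 10 genes in the control libraries of MDA-MB-231 (red circles) and Ca1a (blue squares), 1 library per line. Grey bars join the values of a gene. The bar of DDIT4 is the longest, from 56.6 to 2876 FPKM, and only DDIT3 and ATF5 have the blue square on the left.

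Among the transcription factor genes ATF3 differed most between the controls, at 3.41 FPKM in MDA-MB-231 and 15.4 FPKM in Ca1a, 4.52-fold higher in Ca1a. ATF4 stood at 128 and 327 FPKM, 2.55-fold higher in Ca1a, and CEBPB at 61.6 and 117 FPKM, 1.90-fold higher. DDIT3 went the other way, at 29.2 and 21.7 FPKM, 1.34-fold lower in Ca1a. ATF5 was 2.14-fold lower there, at 9.25 and 4.33 FPKM. The Ca1a control thus held more ATF4 mRNA and less DDIT3 mRNA than the MDA-MB-231 control. Of the glutathione pair, SLC7A11 stood at 10.0 and 31.7 FPKM, 3.16-fold higher in Ca1a, while CHAC1 differed least of the 10 genes, at 18.8 and 21.8 FPKM, a ratio of 1.16.

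Per transcript length, ATF4 was the most abundant of the 10 genes in the MDA-MB-231 control, followed by CEBPB, DDIT4, TRIB3, DDIT3, CHAC1, SLC7A11, SESN2, ATF5 and ATF3. SESN2 and ATF5 stood next to each other at 9.28 and 9.25 FPKM. In the Ca1a control the order was DDIT4, ATF4, TRIB3, CEBPB, SESN2, SLC7A11, CHAC1, DDIT3, ATF3 and ATF5. CHAC1 and DDIT3 were close there, at 21.8 and 21.7 FPKM. With 1 library per line, which neighbours differ beyond the spread between cultures could not be judged. The highest FPKM of the 10 genes was 37.6 times the lowest in MDA-MB-231 and 665 times in Ca1a.

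Lists of related genes were counted by the same rule of size. Over all genes that reached the minimum mean, 2.30% were called lower and 3.98% higher with knockdown. With overexpression the shares were 4.21% lower and 4.22% higher. Of 33 other ATF4 and CHOP targets, 31 had a mean of at least 20 in MDA-MB-231, where 5 were called lower, 1 higher and 25 not called, with a median log2 ratio of -0.09. JDP2, a bZIP repressor gene related to ATF3, had 333 normalized counts in the control and 220 in the knockdown library, 1.52-fold lower (1.28 to 1.81). SLC1A4, a transporter gene for neutral amino acids, had 433 counts in the control and 299 in the knockdown library, 1.45-fold lower. The cystathionine gamma-lyase gene CTH was 1.39-fold lower (1.20 to 1.61) and VLDLR, a lipoprotein receptor gene, 1.30-fold lower (1.14 to 1.49). The fifth was CEBPG, which encodes a heterodimer partner of ATF4, with 2057 and 1644 counts, a ratio of 0.799. The glycine transporter gene SLC6A9, named after its value was seen, was 1.27-fold higher (1.07 to 1.51). ASNS, the asparagine synthetase gene and a standard ATF4 target, had 4105 and 3694 counts, a ratio of 0.900. The group of 10 thus had a lower median than the wider target list. Both were chosen with earlier results of these data known, and the part of that choice in the difference was not tested.

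In Ca1a 30 of those targets had a mean of at least 20, with 1 called lower, 1 higher and 28 not called, at a median of -0.03. VLDLR was 1.45-fold lower (1.21 to 1.74) in the overexpression library. JDP2 was 1.30-fold higher (1.07 to 1.59), with 181 counts in the control and 236 in the overexpression library. ASNS had 11193 counts in the control and 9266 in the overexpression library, a ratio of 0.828.

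**Figure D4:**
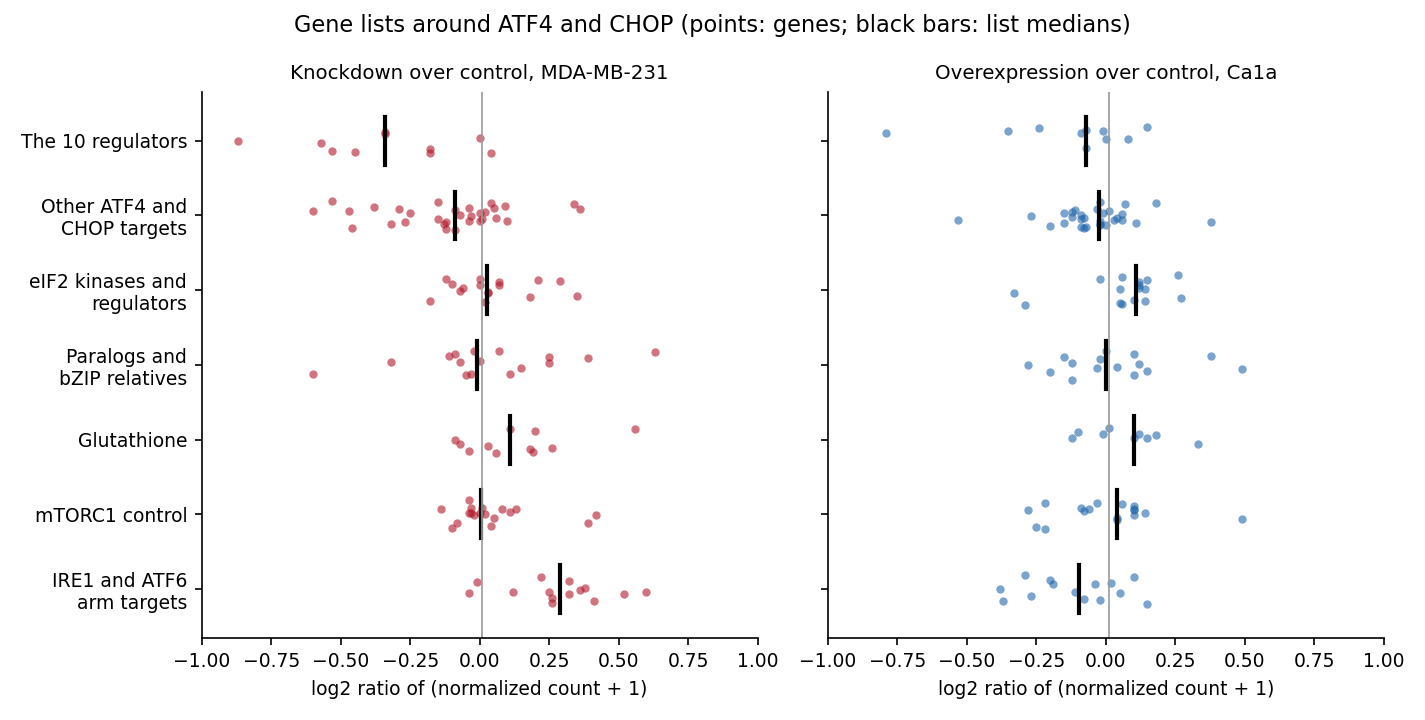
Log2 ratios of (normalized count + 1), treated over control, for the 10 regulators and 6 lists of related genes, in MDA-MB-231 (left) and Ca1a (right). Points are genes with a mean of at least 20, black bars are list medians and the thin line is the median of all such genes. In MDA-MB-231 the bar of the 10 regulators lies at -0.34 and that of the IRE1 and ATF6 arm targets at 0.29.

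Upstream of ATF4, the eIF2 kinases and eIF2 regulators differed little. Of 16 genes in MDA-MB-231, 1 was called higher, 0 lower and 15 not called, with a median of 0.03. The gene called was DNAJC3, which encodes the kinase inhibitor p58IPK, 1.28-fold higher (1.19 to 1.36). EIF2AK3, the gene of the endoplasmic reticulum kinase PERK, had 514 counts in the control and 629 in the knockdown library, a ratio of 1.22. PPP1R15A, which encodes the phosphatase subunit GADD34, had a ratio of 0.881 (8582 and 7564 counts), the same as DDIT3. In Ca1a 0 of 16 were called higher and 1 lower, DNAJC3, 1.26-fold lower (1.18 to 1.34), with a median of 0.11. PPP1R15A had a ratio of 0.816 there, with 4191 and 3418 counts. OMA1, the gene of the mitochondrial protease that relays stress to eIF2alpha, had 515 and 622 counts, a ratio of 1.21. The eIF2 kinase gene EIF2AK1 had 2615 and 3136 counts, a ratio of 1.20 (1.14 to 1.26).

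Targets of the other arms of the endoplasmic reticulum response, IRE1 and ATF6, had a median of opposite sign to that of the 10 genes in MDA-MB-231. Of 15 such targets 14 reached the minimum mean, and 1 had no reads in any library. Of the 14, 5 were called higher and 0 lower, with a median log2 ratio of 0.29. MANF was 1.32-fold higher (1.26 to 1.40) and DNAJB11 1.30-fold higher (1.23 to 1.37). SDF2L1 had 418 counts in the control and 635 in the knockdown library, and CRELD2 had 440 and 631. These encode chaperones or secreted proteins of the endoplasmic reticulum, and the fifth, named after its value was seen, was the chaperone gene CALR, 1.28-fold higher (1.26 to 1.30). In Ca1a 0 of 14 were called higher and 2 lower, with a median of -0.10. Those called lower were DNAJB9 and SDF2L1, each 1.30-fold lower (1.17 to 1.44 and 1.01 to 1.68). HSPA5, XBP1, MANF and HERPUD1 were lower beyond counting error but not called, with ratios of 0.820, 0.829, 0.869 and 0.924. DNAJB11 and CALR were higher beyond counting error but not called, with ratios of 1.07 and 1.11.

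Around SLC7A11 and CHAC1, other glutathione genes were not lower in the knockdown library by the rule of size. Of 11 such genes 1 was called higher, 0 lower and 10 not called, with a median of 0.11. GGT5, a gamma-glutamyltransferase gene with close relatives whose reads may be split, was 1.48-fold higher (1.33 to 1.64). GGT1, GCLC and GSR were higher beyond counting error but not called, with ratios of 1.20, 1.15 and 1.14. SLC3A2, the heavy chain that pairs with SLC7A11, had a ratio of 0.937. GSS and OPLAH were also below 1, at 0.956 and 0.970, with intervals that hold 1. In Ca1a 1 of 9 was called higher, GCLC, the catalytic subunit of glutamate-cysteine ligase, with 4797 counts in the control and 6014 in the overexpression library, and 0 lower.

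Other mTORC1 control genes likewise stood near 1 in MDA-MB-231, with 2 of 18 called higher, 0 lower and a median of 0.01. GATSL3, now named CASTOR1, was 1.34-fold higher (1.05 to 1.71) and SESN3, a paralog of SESN2, 1.31-fold higher (1.01 to 1.71), both on few counts. The other paralog SESN1 had 129 counts in the control and 126 in the knockdown library. In Ca1a SESN1 was 1.41-fold higher (1.26 to 1.57), opposite in sign to SESN2, and was the 1 of 17 genes called there. Of the paralogs and bZIP relatives of the 10 genes, 2 of 16 were called higher and 2 lower in MDA-MB-231, and 2 of 15 higher and 0 lower in Ca1a. The genes called lower in MDA-MB-231 were JDP2 and CEBPG, and those called higher were SESN3 and DDIT4L, a low-count paralog of DDIT4 with 38.2 and 59.6 counts.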

How the data were processed

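RNA-seq libraries of 4 cultures, 1 per group, were compared within each line. The submitters' processing notes name 2 builds (hg38, GRCh38.p5) and the tools DESeq, HTSeq, Cufflinks and HISAT2, without version, role or strand setting. Per the file headers, the deposited values are base means of single libraries: whole read counts for Ca1a, and for MDA-MB-231 a signal that the authors made by dividing counts by a size factor. Of the signal values 100% were whole multiples of the smallest (tolerance 1e-06), read as reads. FPKM and the authors' log2 fold change, p-value and adjusted p-value are as deposited.

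Each ratio of normalized counts has a 95% Clopper-Pearson interval from the 2 libraries' reads, and each level an exact Poisson interval. Reads without molecular identifiers are not independent molecules. Log2 ratios use a pseudocount of 1. The 10 genes, the lists and the naming rule (all members, and up to 4 genes per list and comparison with the largest log2 ratios beyond counting error) were chosen with earlier results of these data known. Outside that rule, SLC6A9, CALR, ASNS, SLC3A2, GSS, OPLAH and SESN1 are named in MDA-MB-231 and were chosen after their values were seen. In Ca1a HERPUD1, MANF, DNAJB11 and CALR were chosen likewise. Not every gene that met the rule is named. Sequences are from RefSeq (GRCh38.p14), positions from GENCODE release 29, and motifs were searched in the bases before each start. Alternatives were other folds, count minimums, pseudocounts, FPKM and scaling by total reads, median or TMM. Software was python 3.11.15, numpy 2.4.6, pandas 2.3.3, scipy 1.17.1, matplotlib 3.10.9, R 4.3.3 and edgeR 4.0.16 (TMM).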

Additional observations from a re-analysis of the deposited data

How the results depend on the processing

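With a required fold of 1.5 in place of a 25% difference, the genes called fell to 1 of 10 in the knockdown comparison (CHAC1) and 1 of 10 in the overexpression comparison (CEBPB), and with 2-fold to 0 in each. With an interval that leaves out 1 and no minimum fold, 8 genes were called in the knockdown comparison, 8 lower and 0 higher, and 7 in the overexpression comparison, 6 lower and 1 higher. The change in these counts follows from the threshold itself. Shares of all genes under these other folds were not counted, so the counts cannot be set against a background. Library totals, the median log ratio or TMM as the scale, and minimum means of 5, 100 or none, left the counts at 6 and 2. By FPKM they were 5 and 2, ATF3 being the gene lost. The median log2 ratio ranged from -0.37 to -0.29 with knockdown and from -0.08 to -0.02 with overexpression. The mean log2 ratio over the 10 genes was -0.34 with knockdown and -0.14 with overexpression. Of the single ratios under the other scales and pseudocounts, 116 stayed within the counting interval of the reported ratio and 4 left it, all by FPKM in Ca1a, and 0 called genes changed sign; the cause was not tested. Between the controls, reads per library total gave 3.03-fold for SLC7A11 and 6.91-fold for TRIB3. No paired analysis was possible because each group held 1 library. Without replicates, differences between cultures unrelated to TMEM126A are not covered by any interval.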
